A study of Mus musculus with 12 samples.

Results

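The transcription factors that set the fate of natural killer T (NKT) cells and of effector T cells were read in RNA of sorted mouse NKT cells. The members are 10 genes named by symbol: Zbtb16, Tbx21, Gata3, Runx1, Runx3, Eomes, Zbtb7b, Bhlhe40, Hopx and Zfp683. Of these, 9 were matched among the 23284 genes of the deposited tables, and Zfp683 is not analysed here. The 12 libraries, from C57BL/6 mice, fall into 4 groups of 3. NKT cells labelled cKO came from thymus or liver of mice in which an E8III-Cre transgene, active at the CD4+CD8+ double-positive (DP) stage of thymocyte development, deletes floxed Rag2. They are the cells of double-negative (DN) origin, whose receptor genes had been assembled before that stage. NKT cells labelled YFP+ came from the same 2 tissues of mice in which E8III-Cre acts on a Rosa26-loxP-STOP-loxP reporter and so marks cells of DP origin. All 4 groups share the Cre transgene and the sort gate, which kept 7AAD- CD45R- CD4- CD8- cells that bound CD1d dimer and carried TCRb, and only the cKO mice lose Rag2. The origin of the cells and the mouse they came from cannot be told apart. Neither the age of the mice nor whether each library came from its own animal is given in the sources used here, so p-values measure the spread between libraries, which may be technical.

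NKT cells are T cells that recognise lipids on CD1d and take on effector functions while still in the thymus. Zbtb16 encodes PLZF, the zinc finger protein that directs this innate-like programme. T-bet (Tbx21) drives the type 1 subset and its relative Eomes acts in cytotoxic lymphocytes, whereas Gata3 supports the type 2 subset and T cell development in general. Runx1 and Runx3 are DNA-binding partners of Cbfb, and Runx3 opposes Zbtb7b (ThPOK) in the choice between the CD8 and CD4 lineages. Bhlhe40 is a helix-loop-helix repressor induced by receptor signals, Hopx is a small homeodomain protein of effector and memory cells, and Zfp683 (Hobit) acts in tissue-resident lymphocytes.

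Some features of the libraries bear on every result. The labels of the 6 liver libraries contradict each other, in that the title gives cKO where the description field gives YFP+ and the reverse. Grouping was by title, so the sign of each liver difference would turn if the description field were right. Rag2 was at 0 in the 3 liver libraries titled cKO and at 0.985 to 1.36 FPKM (a read density scaled to transcript length and to the mapped fragments of the library) in those titled YFP+, and did not exceed 0.015 FPKM in any thymus library, so it checks no thymus label. All 7 markers of T and NKT identity with a value, Zbtb16 among them, averaged at least 1 FPKM in each of the 4 groups. In the thymus, cKO replicate 1 stood apart from the other cKO libraries, with Hspa1a, a heat shock gene, at 90.7 against 743 and 751 FPKM and Hbb-b1, a globin gene, at 40.8 against 0.034 and 5.51. Hspa1a was at 4.79 to 6.18 FPKM in thymus YFP+, so it moved with origin, and its part in the thymus results was not tested. In the liver, the summed FPKM of 9 DP thymocyte markers was 23.2 to 24.6 in cKO and 79.1 to 88.4 in YFP+, with 3 and 8 of the 9 averaging at least 1 FPKM and Rag2 at 0 in cKO. The sum over 6 erythroid markers was 9.83 to 15.0 against 641 to 742, over 6 B cell markers 1.97 to 3.36 against 10.5 to 11.9, and over 7 myeloid markers 29.6 to 35.3 against 63.4 to 90.2. Hepatocyte markers were low in both liver groups (6 genes, summed FPKM 1.44 to 2.87), with Ttr and Fgb at 0 in both. The sum over 2 gamma-delta T cell markers was 14.7 to 18.0 in liver cKO and 1.97 to 3.46 in liver YFP+. Because each tissue has its own normalized table, no level was tested across tissues.

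The members spanned a wide range of RNA levels, and their order differed little between the origins of a tissue. In the thymus Tbx21 had the highest level, 65.6 ± 9.13 FPKM in cKO and 73.9 ± 3.96 in YFP+ (mean ± SD, n = 3, as throughout). Gata3, Hopx and Runx3 followed in both groups, although the libraries of Hopx and Runx3 overlapped in YFP+. Zbtb16 followed Runx3 in thymus YFP+, not separated from Bhlhe40, whereas in thymus cKO it stood below Bhlhe40 and below all libraries of Zbtb7b. Runx1 and then Eomes stood last in both thymus groups. In the liver Gata3 had the highest level, 81.5 ± 1.89 FPKM in cKO and 88.1 ± 10.7 in YFP+. Tbx21 came next in liver cKO, and in liver YFP+ it and Bhlhe40 came next, with overlapping libraries. Runx3, Eomes and Runx1 were the last 3 in both liver groups, Eomes above Runx1 in cKO and below it in YFP+.

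**Figure D1:**
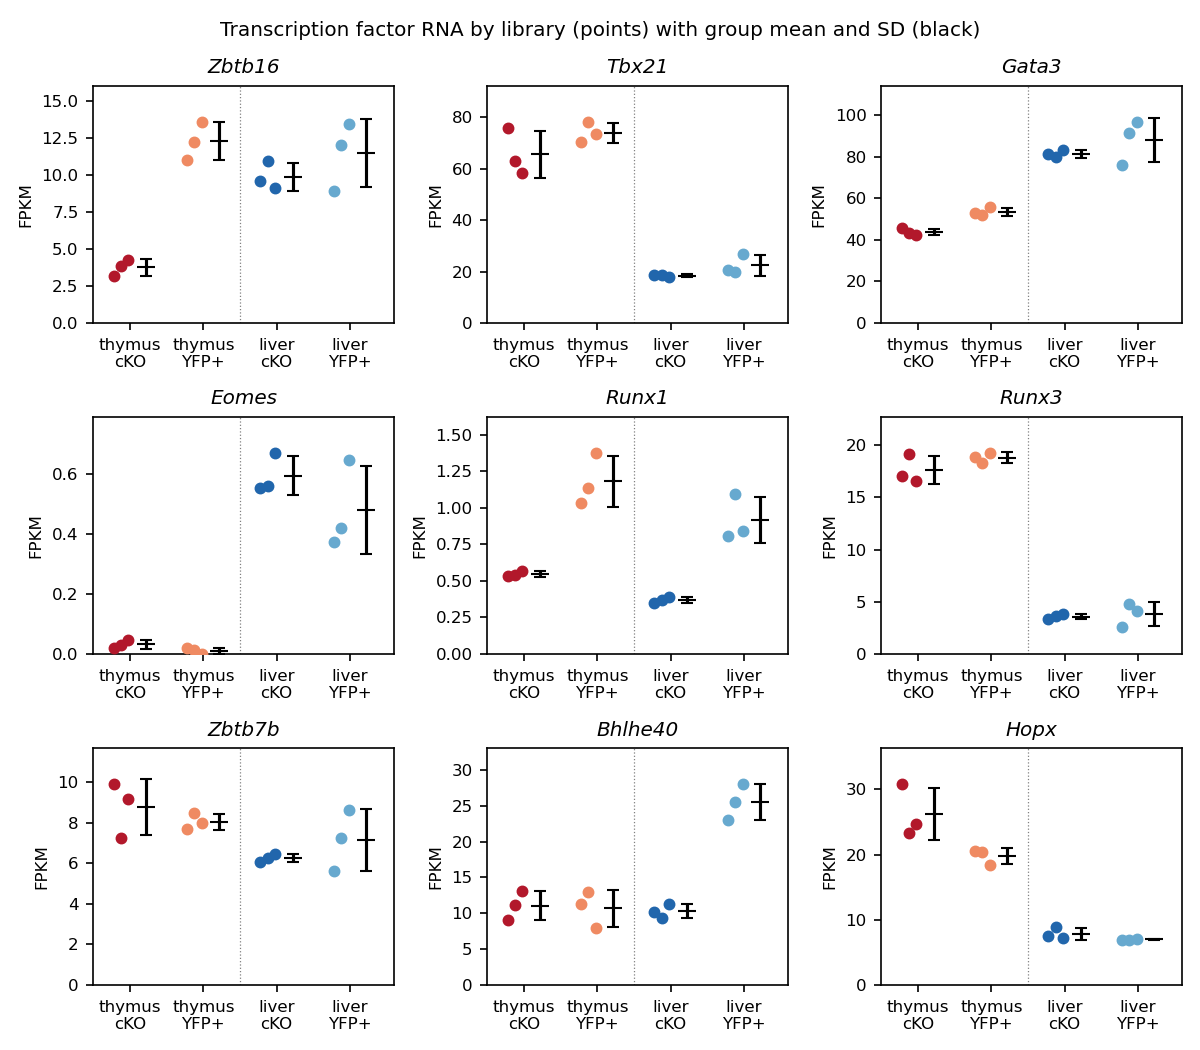
FPKM (vertical axes, from 0) of the 9 transcription factors in each of 12 libraries (points), with the mean and SD of each group of 3 (black). Zbtb16 was lowest in thymus cKO, Bhlhe40 highest in liver YFP+, and Runx1 lower in cKO than in YFP+ in both tissues.

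Ranked within each library, some members held their place between tissues and some did not. Gata3 lay above 96.4 to 97.8% of all listed genes in every library. Tbx21 lay above 98.1 to 98.6% of genes in the thymus and above 88.9 to 91.2% in the liver. For Runx3 the shares were 92.2 to 93.8% and 68.8 to 74.9%, and for Hopx 91.9 to 96.1% and 78.8 to 82.7%. Eomes lay above 0 to 31.6% of genes in the thymus and above 52.2 to 56.2% in the liver. These ranks are a description with no test, since between 4033 and 5740 genes were at 0 in a thymus library and between 6702 and 8869 in a liver library.

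Differences between origins were tested with limma on log2(FPKM + 1), a scale that understates the change of low genes, among genes averaging at least 1 FPKM, with Benjamini-Hochberg adjustment over all genes tested. The 7 members other than Runx1 and Eomes reached that level in both tissues. In the thymus 2 of the 7, Zbtb16 and Gata3, passed at an adjusted p of 0.05, both lower in cKO, where 15.7% of all 9097 genes tested passed, 13.1% as lower and 2.64% as higher. In the liver 1 of the 7, Bhlhe40, passed, also lower in cKO, where 27.2% of all 9591 genes passed, 19.7% as lower and 7.49% as higher. The median gene lay at -0.16 (thymus) and -0.11 (liver), so values relative to it are given too. With libraries rescaled by median ratios, the genes that passed numbered 367 higher and 422 lower in the thymus, against 240 and 1189 as deposited, and 1003 higher and 1058 lower in the liver, against 718 and 1889.

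**Figure D2:**
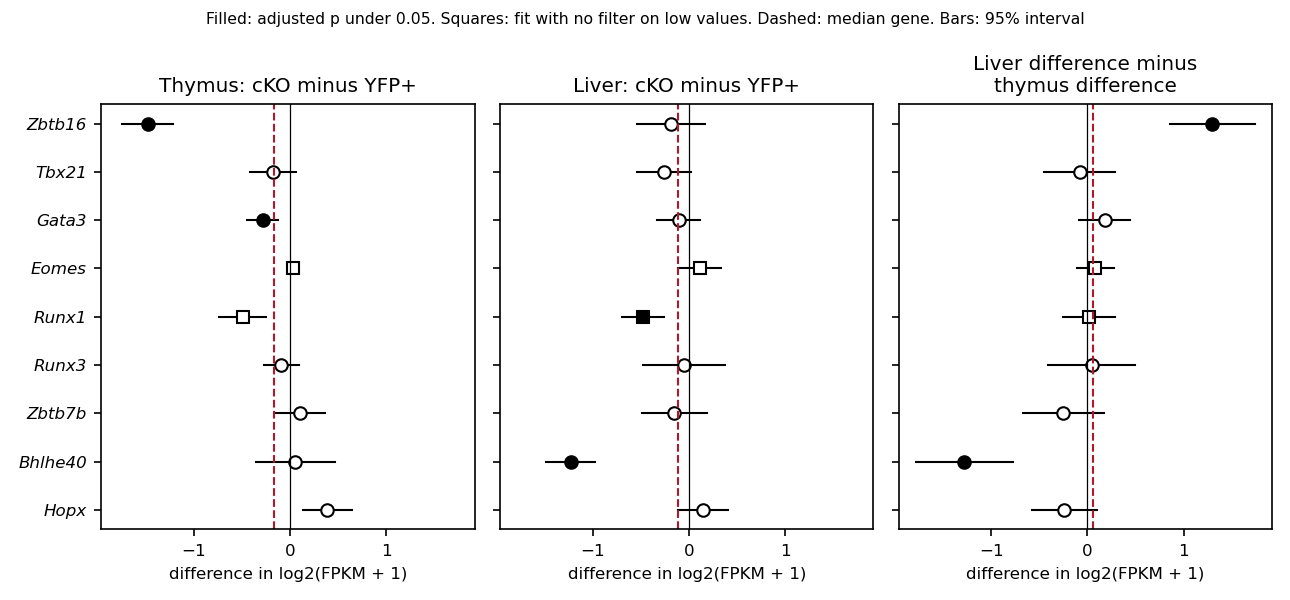
Difference in log2(FPKM + 1), cKO minus YFP+, for each member in the thymus, in the liver, and liver minus thymus, with 95% intervals (bars); filled symbols passed at an adjusted p of 0.05, squares come from the fit with no filter on low values, and the dashed line is the median gene. Zbtb16 stands apart on the low side in the thymus (-1.48) and Bhlhe40 in the liver (-1.23).

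Zbtb16 RNA was lower in cKO than in YFP+ NKT cells of the thymus, and the same contrast in the liver did not pass. In thymus cKO its level was 3.15, 3.84 and 4.27 FPKM in replicates 1, 2 and 3, and in thymus YFP+ it was 11.0, 12.2 and 13.5 FPKM. The groups did not overlap, and the cKO mean was 30.6% of the YFP+ mean. The log2 difference was -1.48 (SE 0.12), or -1.32 relative to the median gene (limma adjusted p = 0.000238). In the liver the levels were 9.58, 10.9 and 9.08 FPKM in cKO and 8.91, 12.01 and 13.4 in YFP+. These groups overlapped, with a log2 difference of -0.18 (95% interval -0.53 to 0.17, adjusted p = 0.408). The difference between the tissues was itself tested on all 12 libraries: liver minus thymus it was 1.30 (SE 0.20, adjusted p = 0.0016, where 15.1% of 9739 genes passed, 9.14% as higher). With the liver groups taken from the descriptions it was 1.67. Fewer cells of a type and less RNA per cell cannot be told apart in such libraries. In the thymus the summed FPKM of the 9 DP thymocyte markers moved in the same direction, 6.27 to 8.13 in cKO against 11.9 to 16.8 in YFP+. Cd1d1 and Cd4 held most of that sum, at 6.03 ± 0.818 against 10.97 ± 1.67 FPKM and 0.429 ± 0.194 against 2.88 ± 0.891. Only 1 and 2 of the 9 averaged at least 1 FPKM, and Rag2 was at 0 in YFP+. Below that level Rag1 and Dntt moved the other way, at 0.0517 against 0.00233 and 0.137 against 0.029 FPKM. The part of these markers in the Zbtb16 result was not tested.

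Bhlhe40 showed the reverse distribution over tissues. In liver cKO its level was 10.2, 9.4 and 11.3 FPKM, and in liver YFP+ it was 23.0, 25.5 and 28.0 FPKM. No library of one group reached the other, and the cKO mean was 40.4% of the YFP+ mean. The log2 difference was -1.23 (SE 0.11), or -1.12 relative to the median gene (limma adjusted p = 0.000314). In the thymus the levels were 9.06, 11.1 and 13.1 FPKM in cKO and 11.3, 12.99 and 7.92 in YFP+, so that both groups covered much the same range. The thymus difference was 0.05 (95% interval -0.36 to 0.47, adjusted p = 0.838), and it changed sign without cKO replicate 3 (-0.06) or YFP+ replicate 3 (-0.13). Liver minus thymus the difference was -1.28 (SE 0.23, adjusted p = 0.00361, where 5.91% of genes passed as lower), and with the liver groups taken from the descriptions it was 1.17. Fosb, an AP-1 subunit and immediate early gene, was higher in the same liver libraries, at 12.4 to 18.0 FPKM in YFP+ against 3.47 to 4.82 in cKO. Egr1 and Egr2, regulators among the linked genes below, overlapped in the liver. Egr1 was at 2.17 ± 0.231 FPKM in YFP+ against 2.09 ± 0.704 in cKO (limma adjusted p = 0.834). Egr2 was at 2.85 ± 0.778 against 1.92 ± 0.605 (adjusted p = 0.171). In the thymus, where Bhlhe40 overlapped, Fosb was at 3.72 to 13.7 FPKM in cKO and 0.428 to 1.11 in YFP+. Thymus Egr2 went the other way and passed as lower in cKO, with no overlap (log2 difference -0.886, limma adjusted p = 0.00539). Thymus Egr1 overlapped, at 4.01 ± 1.06 FPKM in cKO against 4.38 ± 0.479 in YFP+ (adjusted p = 0.595). The DP thymocyte, erythroid, B cell and myeloid marker sums given above also were higher in liver YFP+. Their part in the Bhlhe40 result was not tested.

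Runx1 had lower levels in cKO in both tissues, and its test passed in the liver only, without a difference between tissues that passed. It was at 0.532, 0.541 and 0.568 FPKM in thymus cKO against 1.04, 1.14 and 1.38 in YFP+. In the liver it was at 0.350, 0.369 and 0.392 FPKM in cKO against 0.808, 1.10 and 0.840 in YFP+. All 6 cKO libraries thus lay below all YFP+ libraries of their tissue, and the cKO mean was 46.3% of the YFP+ mean in the thymus and 40.5% in the liver. Among genes listed above 0 in a tissue, 19.1% (thymus) and 18% (liver) had all cKO libraries below all YFP+ libraries. Runx1 averaged under 1 FPKM, so its test comes from the fit with no filter on low values. There the log2 difference was -0.49 in the thymus (SE 0.10, limma adjusted p = 0.0562, where 3.68% of genes passed, 2.76% as lower) and -0.48 in the liver (SE 0.09, adjusted p = 0.0233, where 11.4% passed, 7.62% as lower). With a pseudocount of 0.1 in place of 1 the differences were -0.98 (adjusted p = 0.0553) and -1.10 (0.0412). The liver call was lost without cKO replicate 1, 2 or 3 (0.0735, 0.0716 and 0.064) and without YFP+ replicate 2 (0.0602). Liver minus thymus the difference was 0.01 (95% interval -0.26 to 0.28, adjusted p = 0.968, where 6.21% of genes passed with no filter). The liver marker sums that moved with Bhlhe40 moved with Runx1 too, and their part in it was not tested.

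Runx3 did not pass in either tissue. In the thymus it was at 17.1, 19.1 and 16.6 FPKM in cKO and at 18.9, 18.3 and 19.2 in YFP+, and in the liver at 3.31, 3.62 and 3.80 against 2.57, 4.80 and 4.13. The groups overlapped in both. The log2 differences were -0.09 in the thymus (95% interval -0.28 to 0.09) and -0.05 in the liver (-0.48 to 0.38). Both turned positive with libraries rescaled by median ratios (0.06 and 0.04) and with quantile normalization (0.08 and 0.01).

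Runx genes are transcribed from a distal and a proximal promoter, and the FPKM combine both. The RefSeq promoter windows (GRCm38.p6, 250 bases before to 50 after a start, another build than the mm9 of the deposited values) show what the distal windows of the family share, which is why 3 stretches of 30 bases around the matches are printed, with the RUNX motif ACCACA in capitals, 5′ to 3′ on the strand of the gene. Runx2, the other gene of the family, is included although it is no member.
Runx1, distal window, chr16:92826025-92826054, minus strand: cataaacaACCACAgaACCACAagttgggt
Runx2, chr17:44814583-44814612, minus strand: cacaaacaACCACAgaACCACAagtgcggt
Runx3, distal window, chr4:135120503-135120532, plus strand: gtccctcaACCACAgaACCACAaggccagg
All 3 stretches hold the same pair of motifs, ACCACAGAACCACA, starting 29 bases after the Runx1 start, 24 after the Runx2 start and 134 before the Runx3 start. Of 32851 windows of 300 bases in the table, 4 held this pair on either strand (0.0122%), those of the 3 Runx genes and of Gm16225, while 16.8% held a single ACCACA or its reverse TGTGGT. The pair was looked for after the sequences had been read. Runx1, which was lower in cKO in both tissues by level, and Runx3, which overlapped in both, thus share these letters. Thymus Runx2 was at 1.11 ± 0.238 against 0.914 ± 0.0653 FPKM (cKO against YFP+, limma adjusted p = 0.407) and liver Runx2 at 1.45 ± 0.128 against 1.24 ± 0.255 (adjusted p = 0.516).

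Of the 9 members with a value, 7 had a promoter window, 11 windows in all, and 4 motifs were searched on both strands. The RUNX motif was ACCACA as above. For the T-box family it was AGGTGTGA. For the GATA family, which includes Gata3, AGATAA was used. The E-box, of the kind bound by Bhlhe40, was CACGTG. Neither AGATAA nor AGGTGTGA was found in the 11 windows, against 11.2% and 1.28% of all windows. Beside the distal Runx windows, ACCACA or TGTGGT was found in 1 Zbtb7b window. CACGTG, held by 7.15% of all windows, was found in 1 Hopx window and in the distal Runx1 window, shown here because Hopx and Runx1 are members whose groups did not overlap in the 2 tissues, with the E-box in capitals.
Hopx, chr5:77095336-77095365, minus strand: tggcaaggccccCACGTGctagcccgcggc
Runx1, distal window, chr16:92826128-92826157, minus strand: catcacttaagtCACGTGattggcaagagc
A match describes these letters and is no evidence of binding in these cells.

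Neither T-box factor passed in a tissue. T-bet RNA (Tbx21) was at 75.8, 62.9 and 58.2 FPKM in thymus cKO and at 70.2, 78.1 and 73.4 in thymus YFP+. These groups overlapped, because cKO replicate 1 lay among the YFP+ libraries. The log2 difference was -0.18 (95% interval -0.41 to 0.06, limma adjusted p = 0.241), or -0.01 relative to the median gene. It passed without cKO replicate 1 (-0.28, adjusted p = 0.0332) and with library weights (-0.27, 0.0431). In the liver Tbx21 was at 18.7, 18.6 and 17.8 FPKM in cKO and at 20.5, 19.7 and 26.9 in YFP+. The liver groups did not overlap, as in 29.6% of tested genes with cKO lower, but the difference of -0.26 (95% interval -0.54 to 0.03) did not pass (adjusted p = 0.159). Eomes was close to 0 in the thymus, at 0.019, 0.031 and 0.047 FPKM in cKO and at 0.019, 0.015 and 0 in YFP+. Such values lie too low to compare. In the liver it was at 0.552, 0.560 and 0.668 FPKM in cKO and at 0.372, 0.420 and 0.645 in YFP+. These groups overlapped (no filter on low values, log2 difference 0.11, 95% interval -0.12 to 0.34, adjusted p = 0.499). NK cell and type 1 innate lymphoid cell markers, for lineages that include cells expressing Eomes, were summed over 6 genes. The sum was 874 to 907 FPKM in liver cKO and 830 to 1033 in YFP+. The 6 genes moved both ways, with 2 passing as higher in liver cKO and 2 as lower. The NK receptor gene Ncr1 was higher, at 1.72 to 2.87 FPKM in cKO and 0.179 to 0.502 in YFP+. Ncr1 averaged under 1 FPKM in YFP+ and reached the tested mean through cKO, so the count that includes it is a description. Klre1 was higher too, at 194 ± 4.04 against 139 ± 15.1. Gzma, at 165 ± 10.1 against 235 ± 32.3, and Klrb1c, at 129 ± 3.66 against 159 ± 4.73, were lower. Fcer1g and Tyrobp overlapped. The part of cells from these lineages in the Eomes values was not tested.

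Gata3 was modestly lower in cKO thymus. Its level was 45.5, 43.1 and 42.5 FPKM in cKO and 52.9, 51.8 and 55.8 in YFP+, with no overlap, as in 37.6% of tested genes with cKO lower. The log2 difference of -0.28 (SE 0.07, limma adjusted p = 0.0323) shrank to -0.12 relative to the median gene. With median-ratio scaling it was -0.13 and did not pass (adjusted p = 0.196). The call was lost without cKO replicate 2 or 3 (0.0883 and 0.106) and without YFP+ replicate 1, 2 or 3 (0.0832, 0.0755 and 0.0941). In the liver Gata3 was at 81.3, 79.7 and 83.5 FPKM in cKO and at 76.2, 91.5 and 96.7 in YFP+, where YFP+ replicate 1 lay below all cKO libraries. That difference was -0.10 (95% interval -0.33 to 0.12, adjusted p = 0.467), and turned to 0.0041 with median-ratio scaling and to 0.18 with quantile normalization. Zbtb7b was at 9.91, 7.26 and 9.18 FPKM in thymus cKO against 7.70, 8.48 and 7.98 in YFP+, and at 6.08, 6.28 and 6.46 in liver cKO against 5.60, 7.25 and 8.62 in YFP+. The groups overlapped in both tissues, with differences of 0.10 (95% interval -0.16 to 0.36) and -0.15 (-0.49 to 0.19).

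Hopx was the single member with higher levels in cKO and no overlap in the thymus. Its level was 30.8, 23.4 and 24.7 FPKM in thymus cKO and 20.6, 20.3 and 18.4 in YFP+, as in 5.34% of tested genes with cKO higher and no overlap. The log2 difference of 0.38 (SE 0.11, limma adjusted p = 0.0509) just missed the threshold. Relative to the median gene it was 0.55. With median-ratio scaling (0.53, adjusted p = 0.0199) and with quantile normalization (0.55, 0.0147) it passed, as it did with array weights (adjusted p = 0.026), with a minimum mean of 5 FPKM (0.0407) and without cKO replicate 1 (0.27, 0.0485). In the liver Hopx was at 7.49, 8.89 and 7.21 FPKM in cKO and at 6.90, 6.98 and 7.09 in YFP+. These groups came close without overlapping, as in 14.7% of tested genes with cKO higher, and the difference of 0.15 (95% interval -0.12 to 0.41) did not pass (adjusted p = 0.379).

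Ratios of 2 members within a library do not depend on how the library was scaled. They were compared between origins with a two-sided exact permutation test, in which 3 against 3 libraries cannot give a p under 0.1. The ratio Zbtb16 to Tbx21 was 0.0587 ± 0.0161 in thymus cKO and 0.166 ± 0.0161 in thymus YFP+ (exact p = 0.1), 2.90-fold apart with no overlap. In the liver this ratio was 0.536 ± 0.0447 against 0.514 ± 0.0883 (exact p = 0.8). The ratio Runx3 to Runx1 was 32.2 ± 3.06 against 16.1 ± 2.13 in the thymus and 9.65 ± 0.184 against 4.15 ± 0.888 in the liver (exact p = 0.1 each). Its cKO libraries lay above its YFP+ libraries in both tissues, by 2.01-fold and 2.36-fold. Eomes to Tbx21 was 0.0323 ± 0.00444 in liver cKO and 0.0211 ± 0.00293 in liver YFP+ (exact p = 0.1), with no overlap. That ratio was not formed in the thymus, where Eomes was at 0 in 1 library. Tbx21 to Gata3 was 1.498 ± 0.153 against 1.38 ± 0.107 in the thymus (exact p = 0.4) and 0.226 ± 0.0106 against 0.254 ± 0.034 in the liver (exact p = 0.3). Zbtb7b to Runx3 overlapped in both tissues as well, at 0.504 ± 0.109 against 0.429 ± 0.0309 and 1.76 ± 0.071 against 1.93 ± 0.364 (exact p = 0.4 and 0.5). Over the 9 ratios tested no adjusted p was below 0.225.

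**Figure D3:**
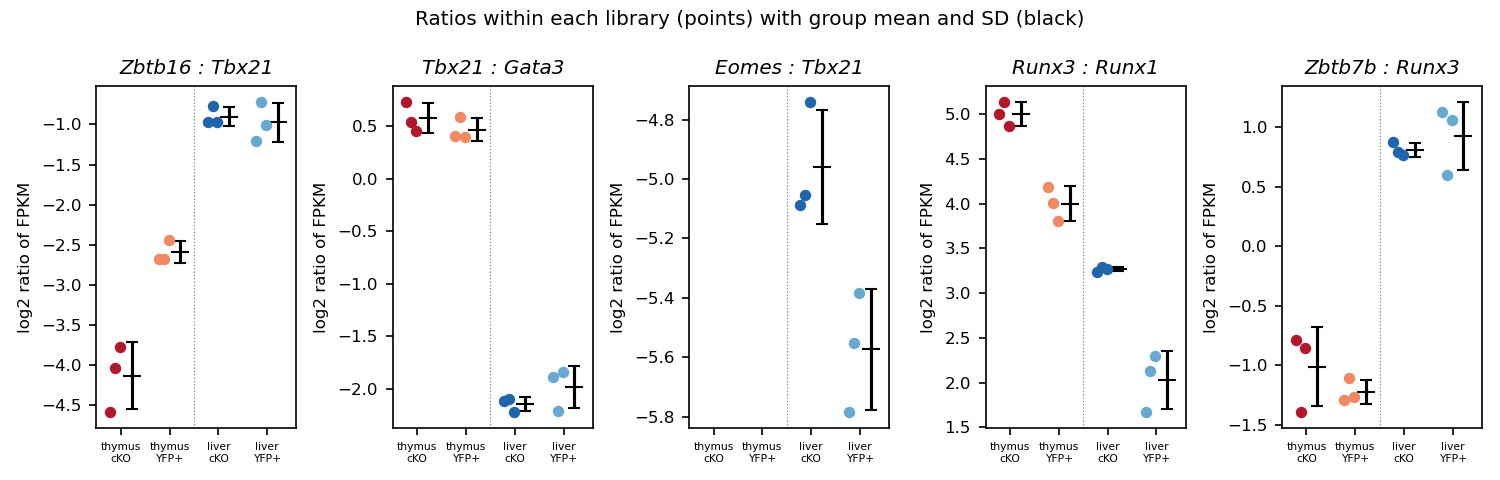
The log2 ratio of the FPKM of 2 members (vertical axes) within each of 12 libraries (points), with the mean and SD of each group (black); Eomes to Tbx21 has no thymus values because Eomes was at 0 in 1 library. Zbtb16 to Tbx21 was lower in cKO thymus, and Runx3 to Runx1 was higher in cKO in both tissues.

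For the 3 members that passed in a tissue, the genes with the most similar pattern were those with the smallest root mean square difference over the 12 libraries, after log2(FPKM + 1) was centred in each tissue. Among 8371 other genes averaging at least 1 FPKM in both tissues, those nearest to Zbtb16 were Tex2 (0.165, against a median of 0.517 over genes), Serpinb1a, an inhibitor of serine proteases (0.167), and Fibcd1, an acetyl-binding receptor (0.17). Thymus Tex2 was at 4.96 ± 0.597 against 15.2 ± 0.739 FPKM (cKO against YFP+) and liver Tex2 at 9.64 ± 0.965 against 12.2 ± 1.47. Nearest to Bhlhe40 were Hist1h4d, a histone H4 gene (0.167, against a median of 0.482), Sik1, a salt-inducible kinase (0.17), and Gm129, a repressor of the circadian clock (0.175). Gm129 was at 7.09 ± 2.31 against 5.04 ± 0.913 FPKM in the thymus and at 7.67 ± 0.266 against 19.4 ± 2.16 in the liver. For Gata3 the nearest were Fip1l1, Tcf25 and Ccdc47 (0.0427, 0.0436 and 0.0469, against a median of 0.19), none of which passed in the thymus (adjusted p = 0.0657, 0.0629 and 0.0793). The libraries share tissue, table and scaling, so likeness here is a description.

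**Figure D4:**
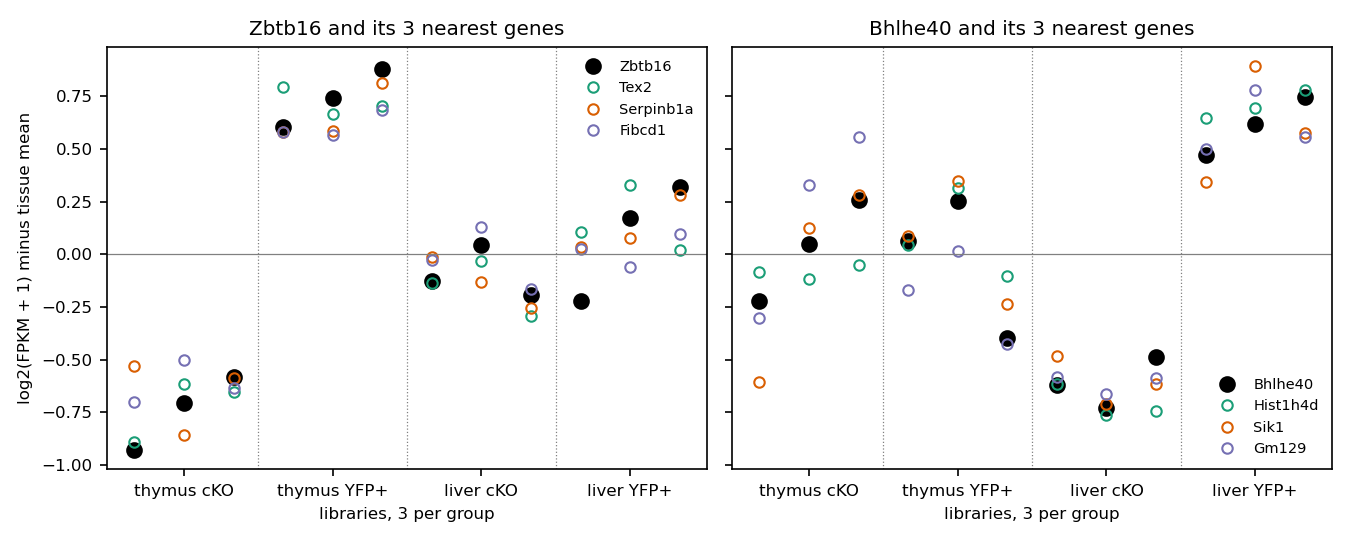
Values of log2(FPKM + 1) minus the mean of the tissue (vertical axis) in 12 libraries, 3 per group (horizontal axis), for Zbtb16 (left) and Bhlhe40 (right), each with its 3 nearest genes (open circles). The Zbtb16 set is low in thymus cKO and the Bhlhe40 set is high in liver YFP+.

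Genes linked to the members by function were counted next, beside the shares of all genes given above. Some genes named from these lists averaged under 1 FPKM in one group and reached the tested mean through the group where they were high. They were Slamf6 (both tissues), thymus Il4, S1pr5, Cd4 and Egr2, and liver Ecm1, Myb and Cd8b1. The counts that include them are therefore descriptions. Each of these genes, apart from Egr2, for which that result is not given here, also passed in the fit with no filter on low values. Of 13 tested genes of the innate-like programme linked to Zbtb16, 9 were lower and 1 higher in cKO thymus (median -0.83, against -0.16 for all genes tested). Slamf6, a receptor used in NKT selection, was at 0.0247 ± 0.0158 against 2.39 ± 1.17 FPKM, and Il4, the type 2 cytokine, at 0.673 ± 0.273 against 4.22 ± 0.211 (limma adjusted p = 0.00242 and 0.000241). Without YFP+ replicate 3 Slamf6 fell below the tested mean. The higher gene was Cd69, an activation marker that retains cells in tissue (adjusted p = 0.0386), a call that held without cKO replicate 1 but was lost when any of the other 5 thymus libraries was left out. In the liver, where Zbtb16 did not pass, 7 of 13 were lower and 1, Il2rb, higher (median -0.42, against -0.11). The counts were 5 lower and 2 higher with median-ratio scaling, and 4 lower and 2 higher with quantile normalization (median -0.25). Sh2d1a, the SLAM adaptor SAP, was at 24.4 ± 0.644 against 64.8 ± 9.9 FPKM there, Slamf6 at 0.586 ± 0.319 against 4.83 ± 0.932, and Cd69 at 59.9 ± 6.17 against 123.8 ± 8.73. Cd69 thus passed in opposite directions in the 2 tissues. So did Il2rb, which was lower in cKO thymus (limma adjusted p = 0.00998) and higher in cKO liver (0.00857).

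Type 1 genes linked to T-bet and Eomes moved both ways while Tbx21 itself did not pass. Among 18 such genes, 4 passed as higher and 7 as lower in cKO thymus (5 and 5 with median-ratio scaling). The lower count was 3 without cKO replicate 3 or YFP+ replicate 3, and 4 without replicate 2 of either group. Ccl5, a chemokine, was at 1159 ± 310 against 253 ± 17.0 FPKM, S1pr5, a sphingosine phosphate receptor that T-bet induces, at 5.12 ± 1.96 against 0.776 ± 0.166, and Ifng, the type 1 cytokine, at 58.7 ± 15.9 against 18.2 ± 6.44. In the liver 5 of 17 were higher and 6 lower (6 and 5 with median-ratio scaling). Ifng was lower there, at 32.6 ± 1.47 against 57.9 ± 1.57 FPKM, as were the chemokine genes Ccl4 (5.73 ± 1.40 against 23.0 ± 4.70) and Xcl1 (187 ± 5.55 against 330 ± 37.2). Ifng therefore passed as higher in cKO thymus and as lower in cKO liver.

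Of the type 2 genes and T lineage genes linked to Gata3, none passed as higher in either tissue. Few would at the share of all genes that passed as higher, 2.64% in the thymus and 7.49% in the liver. Of 6 tested in the thymus 4 were lower and 0 higher (median -0.83), among them the IL-25 receptor gene Il17rb, at 1.33 ± 0.503 against 8.68 ± 0.614 FPKM, Maf, a transcription factor, at 4.80 ± 0.976 against 9.57 ± 0.69, and Il4, given above. Without cKO replicate 1, 6 of 7 were lower, where 2055 of all 9101 genes tested passed as lower. In the liver 2 of 8 were lower, a share near the 19.7% of all genes that passed as lower. They were Ecm1, a matrix protein, at 0.375 ± 0.144 against 2.07 ± 0.289 FPKM, and Cd3d, a CD3 chain, at 431 ± 5.71 against 559 ± 69.6. The Cd3d call was lost with median-ratio scaling (adjusted p = 0.16) and without cKO replicate 1, 2 or 3 or YFP+ replicate 2 (0.0827, 0.0725, 0.0701 and 0.0776). For 4 genes of the list (Il13, Il5, Il10 and Il1rl1) the mean was under 1 FPKM in both tissues.

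Partners and regulators of the members that passed were mostly lower in cKO, as were passing genes in general. Those numbered 1189 lower and 240 higher in the thymus, and 1889 and 718 in the liver. The list itself had its median at -0.31 (thymus) and -0.16 (liver), against -0.16 and -0.11 for all genes. Of 24 tested in the thymus 9 were lower and 1 higher (6 and 1 with median-ratio scaling, 14 and 1 with array weights, 13 and 1 without cKO replicate 1, and 6 and 1 or 0 without cKO replicate 2 or YFP+ replicate 1 or 3), and of 21 in the liver 7 and 1 (5 and 1 with median-ratio scaling, and 4 and 1 with quantile normalization or without YFP+ replicate 2). Over all genes tested in the thymus, 2383 of 9097 passed as lower with array weights and 422 of 9105 with median-ratio scaling. Without cKO replicate 1 this was 2055 of 9101. Of the 14 listed thymus genes that did not pass, 6 had all cKO libraries below all YFP+ libraries. Among all tested thymus genes, passing or not, that share was 37.6%. Lef1, a transcription factor of immature T cells, was lower in both, at 5.95 ± 0.935 against 23.6 ± 2.04 FPKM in the thymus and 9.94 ± 2.79 against 40.2 ± 2.70 in the liver. So was Id3, an inhibitor of E proteins, at 6.62 ± 0.409 against 17.6 ± 2.75 and 31.7 ± 1.41 against 76.3 ± 3.48. Tox, needed for NKT development, was at 4.46 ± 0.829 against 9.42 ± 1.57 FPKM in the thymus, and Myb, a factor of early thymocytes, at 0.138 ± 0.0288 against 1.88 ± 0.468 in the liver. Liver Myb fell below the tested mean with median-ratio scaling, with quantile normalization and without any 1 YFP+ library. Tcf7, a relative of Lef1, was the higher gene in the thymus, a call lost without cKO replicate 3 or YFP+ replicate 1, and was among the lower genes in the liver, where Stat6, which relays IL-4 signals, was higher. Cbfb, the partner of both Runx members, was at 3.203 ± 0.329 against 4.29 ± 0.609 FPKM in the thymus and did not pass (adjusted p = 0.079).

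Residency and recirculation genes, linked to Zfp683 and its relative Prdm1, split in the thymus. There 4 of 10 tested were higher and 4 lower in cKO, but 2 and 2 without cKO replicate 3, and 2 and 3 without YFP+ replicate 1. Klf2, a factor that drives exit from the thymus, was at 133 ± 5.90 against 63.1 ± 8.15 FPKM and its target S1pr1 at 10.8 ± 2.35 against 4.34 ± 0.145. Ahr, the aryl hydrocarbon receptor, was at 1.11 ± 0.419 against 11.7 ± 0.892. In the liver 2 of 12 were higher and 7 lower (median -0.35), against 3 and 5 with median-ratio scaling and 3 and 4 with quantile normalization (median -0.07). The higher count there was 1 without cKO replicate 2 or 3 or YFP+ replicate 2, and 3 without YFP+ replicate 3. The lymph node homing gene Ccr7 was at 1.47 ± 0.678 against 12.8 ± 1.51 FPKM, and Rgs1, a signalling regulator of resident cells, at 70.6 ± 2.45 against 364 ± 22.8. Prdm1 did not pass in either tissue (adjusted p = 0.654 and 0.361). Of the coreceptor genes governed by Zbtb7b and Runx3, Cd4 was lower in cKO in both tissues, at 0.429 ± 0.194 against 2.88 ± 0.891 FPKM and 1.90 ± 0.528 against 8.44 ± 0.437. Cd8b1 was lower in the liver, at 0.844 ± 0.233 against 13.1 ± 1.89. In the thymus Cd8b1 averaged under 1 FPKM, at 0.236 ± 0.1 against 0.328 ± 0.128, with overlap. Cd8a averaged under 1 FPKM in both tissues. The cells were sorted as CD4- CD8-, and these coreceptor genes belong to the DP thymocyte marker list as well.

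**Figure D5:**
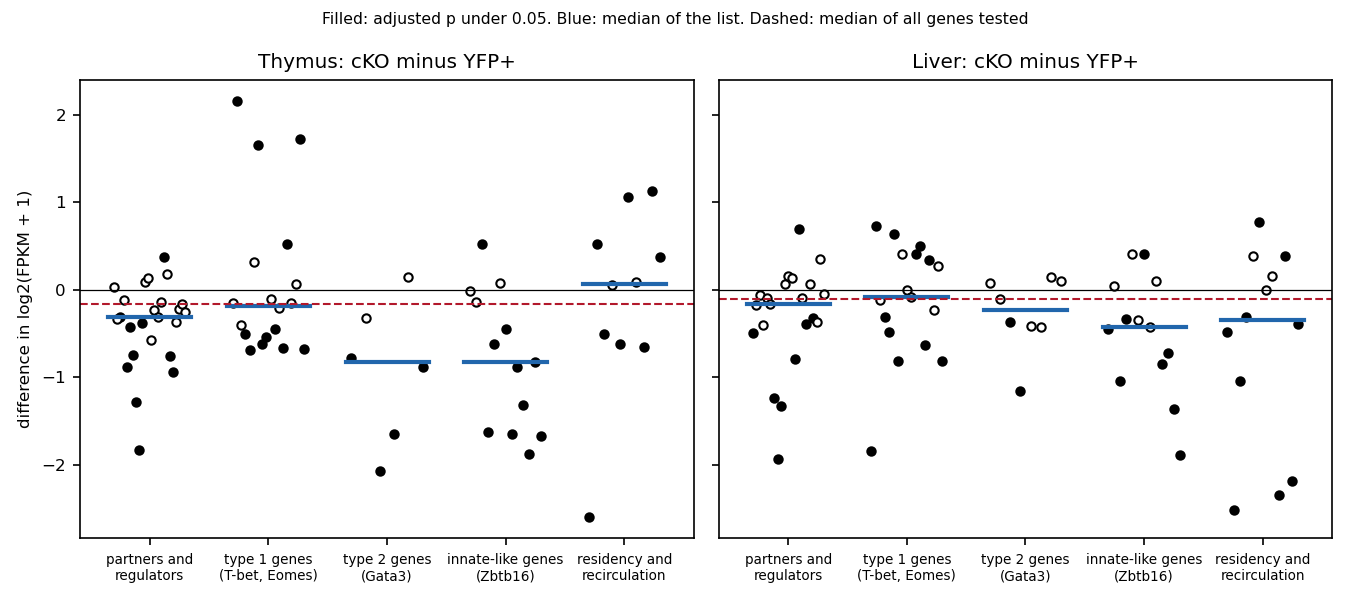
Difference in log2(FPKM + 1), cKO minus YFP+ (vertical axis), of each tested gene in 5 lists linked to the members (horizontal axis), thymus left and liver right; filled points passed at an adjusted p of 0.05, blue lines are list medians and the dashed line is the median of all genes tested. The list linked to Zbtb16 has its median at -0.83 in the thymus and -0.42 in the liver.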

How the data were processed

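The 12 RNA-seq libraries of NKT cells were grouped by title. FPKM were deposited by the authors, thymus and liver apart. The tools named per the submitters' processing notes are TopHat2 2.8.0 and Cufflinks 2.1.1, with build mm9. The tables hold no read totals, so depth is unknown. Whether counting used strand is not stated there.

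FPKM as deposited were tested as log2(FPKM + 1) with limma 3.58.1 (trend) in R 4.3.3, for genes whose FPKM averaged 1 or more, at a Benjamini-Hochberg adjusted p of 0.05. The fits covered cKO against YFP+ in each tissue and the difference between tissues. The fits were tested on simulated data. No column of values was left unmapped. All 10 members and the linked lists were chosen with earlier results of these data known, and some genes are in more than 1 list. Text names all members, up to 3 genes per list and tissue that passed with no overlap, by size, and 3 similar genes per called member; 2 list genes that the rule names are not reported here. Genes named beyond this, such as Runx2 and Cbfb, were chosen after their values were seen. Alternatives were other filters, pseudocount, scalings, weights, a replicate block, each library left out, and liver groups by description; those for Runx1, Eomes and the lists were chosen after seeing the data.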

Additional observations from a re-analysis of the deposited data

Results flagged for a closer look

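The difference between origins differed between tissues in 2 members, by the test of that difference over all 12 libraries. For Zbtb16 the liver difference exceeded the thymus difference by 1.30 on the log2(FPKM + 1) scale (limma adjusted p = 0.0016). Its cKO libraries lay below all YFP+ libraries in the thymus and overlapped with them in the liver. For Bhlhe40 the liver difference lay below the thymus difference, at -1.28 (adjusted p = 0.00361), with no overlap in the liver and overlap in the thymus. Both differences passed without any 1 of the 12 libraries, with adjusted p of at most 0.0058 for Zbtb16 and 0.0118 for Bhlhe40.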

How the results depend on the processing

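Zbtb16 in the thymus, Bhlhe40 in the liver and both differences between tissues passed in every alternative run, with Bhlhe40 between tissues mirrored to 1.17 under the liver groups of the descriptions. The thymus count of 1429 genes became 801 with no filter on low values, 789 with median-ratio scaling, 825 with quantile normalization, 2798 with array weights and 787 with a replicate block. Without 1 library it ranged from 472 (without YFP+ replicate 3) to 2408 (without cKO replicate 1). The liver count of 2607 became 3940 with array weights and 1539 to 2640 without 1 library. The count of 1466 between tissues became 2634 with array weights, 3390 with the liver groups of the descriptions and 983 to 1700 without 1 library. The cause was not tested.

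Sign changes were limited to values that did not pass, apart from Bhlhe40 under the descriptions. With median-ratio scaling the differences were 0.0554 for Runx3 in the thymus, 0.0385 for Runx3 and 0.0041 for Gata3 in the liver, and between tissues -0.0169 for Runx3 and -0.0153 for Runx1. With quantile normalization they were 0.0763 for Runx3 in the thymus, 0.012 for Runx3 and 0.18 for Gata3 in the liver, and between tissues -0.0643 for Runx3 and -0.0134 for Runx1. Array weights gave 0.115 for Tbx21, -0.127 for Runx3 and -0.0547 for Runx1 between tissues, and a pseudocount of 0.1 gave -0.121 for Runx1. Under the descriptions the values between tissues were 0.433 for Tbx21, 0.0463 for Zbtb7b and -0.141 for Eomes, and those of Gata3 (0.39), Hopx (-0.53) and Runx1 (0.97) passed. Leaving out 1 library turned some signs as well. The range was -0.131 to 0.194 for Bhlhe40 in the thymus (-0.0614 without cKO replicate 3), -0.254 to 0.0965 for Runx3 in the liver (0.0078 without YFP+ replicate 3) and -0.0447 to 0.199 for the log2 Zbtb16 to Tbx21 ratio there. Between tissues it was -0.163 to 0.0522 for Tbx21 (0.0252 without thymus cKO replicate 1), -0.161 to 0.189 for Runx3 and -0.0488 to 0.0808 for Runx1 (-0.0261 and -0.0135 without liver YFP+ replicates 1 and 3).

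Replicate numbers carry no stated pairing, and libraries with the same number did not deviate together (r across genes -0.0465 to 0.0076 for thymus pairs, -0.0634 to 0.0659 for liver pairs). With the replicate block, Gata3 in the thymus (adjusted p = 0.0722) and Runx1 in the liver (0.0806) no longer passed, and no other call on a member changed. Depth is unknown, and Eomes and Runx1 lie where FPKM are least precise.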
